A study of Mus musculus with 2 samples.

Results

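The Notch genes examined here were 3 receptors (Notch1, Notch2 and Notch3), 4 ligands (Jag1, Jag2, Dll1 and Dll4) and 3 target transcription factors (Hes1, Hey1 and Heyl). They were chosen by symbol, and all 10 were found among the 23284 genes of the count files. The libraries came from mouse primary hepatocytes of strain C57BL/6, liver cells taken from the animal and kept in culture. One library was from cells infected with lentivirus that carried an shRNA against JMJD3, a demethylase of histone H3 lysine 27 encoded by Kdm6b, and the other from cells infected with control lentivirus. Each group pooled cells of 5 mice, was infected 24 h after plating and stayed with the virus for 48 h. Both then received 5 mM glucose and 10 µM forskolin, which raises cyclic AMP, for 6 h to imitate fasting, so the control carried virus and forskolin as well. With 1 library per group none of the differences has a replicate check, and differences between pools of mice or between virus preparations cannot be told apart from the knockdown.

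Notch is a receptor at the cell surface that is activated by a ligand of the Jagged or Delta-like families on a neighbouring cell. The metalloprotease ADAM10 and then the gamma-secretase complex cut the bound receptor, and its intracellular part enters the nucleus. There it binds the DNA-binding protein RBPJ and the Mastermind co-activators and switches on genes of the HES and HEY families, which encode transcriptional repressors. In the liver, JAG1 and NOTCH2 are best known for their role in the formation of bile ducts.

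The JMJD3 shRNA library held 18334366 counts and the control library 11099562. Levels are given as CPM, counts scaled to library size by the library total and the TMM factor. Kdm6b, the targeted gene, had 598 counts in the JMJD3 shRNA library and 1019 in the control, or 33.0 against 90.7 CPM. A gene was called measured when the mean of both libraries reached 1 CPM. In place of a test, a measured gene passed as higher or lower when its ratio was at least 1.5-fold from 1 and the exact binomial 95% interval of the counts excluded 1. That rule was met by 28% of the 12607 measured genes, with 15.3% higher and 12.8% lower in the JMJD3 shRNA library. Intervals cover counting error only.

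Jag1 and Hes1 were higher and Hey1 was lower in the JMJD3 shRNA library, while the most abundant receptor, Notch2, differed little. Of the 10 genes, 8 were measured, and 3 passed as higher and 1 as lower. The third gene that passed as higher, Notch1, lay just past the 1.5-fold limit. Counts of 3 and 1 among 8 genes, beside 15.3% and 12.8% of all measured genes, are a description of these genes and not a test of the family. The median log2 ratio of the measured members was 0.0070, and that of all measured genes was -0.0036. With a limit of 2-fold, which 7.35% of measured genes passed as higher and 6.19% as lower, 2 members passed as higher and 1 as lower. With the dependence of the ratio on exon length taken out, which left 13.2% of measured genes higher and 12% lower, the counts were again 2 and 1. Notch2 then stood at a log2 ratio of -0.51 (-0.57 to -0.44), short of the 1.5-fold limit. Dll4 and Heyl did not reach 1 CPM in the mean.

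**Figure D1:**
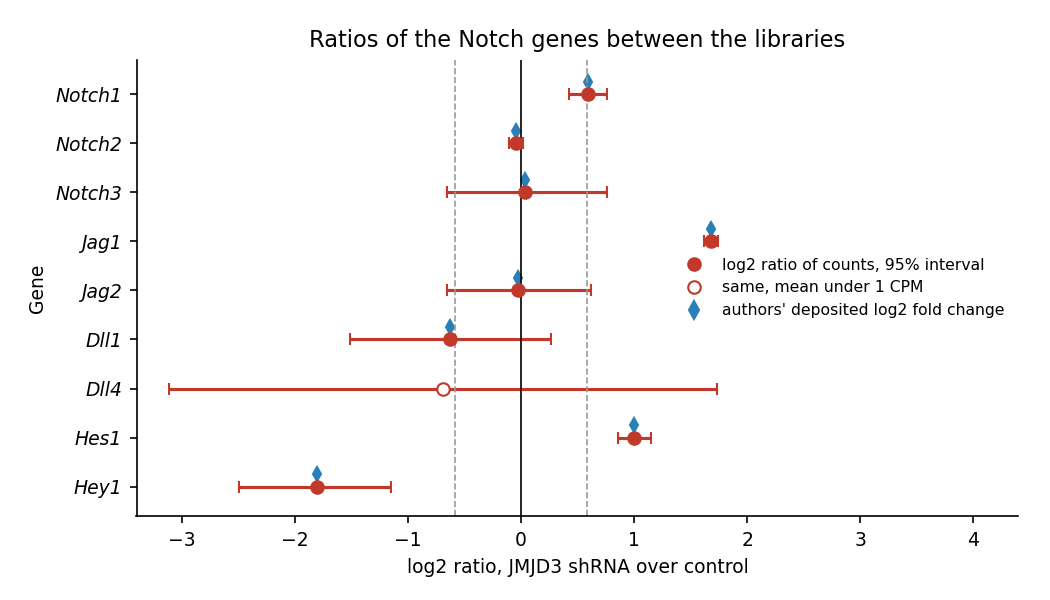
The log2 ratio of JMJD3 shRNA over control (x axis) is drawn for 9 of the 10 Notch genes (y axis) with exact binomial 95% intervals as bars. Dashed lines mark 1.5-fold, the open circle is a gene under 1 CPM, and diamonds are the log2 fold changes of the authors' deposited table. Jag1 stands farthest to the right at 1.68 and Hey1 farthest to the left at -1.81, and Heyl is left out because it had 2 counts at most.

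Among the ligands, Jag1, which encodes the Jagged ligand tied to bile duct formation, dominated in both libraries. It had 13157 counts in the JMJD3 shRNA library and 2547 in the control, which corresponds to 726.6 CPM against 226.6 CPM. The ratio was 3.21 (3.07 to 3.35), a log2 ratio of 1.68 (1.62 to 1.74). Among measured genes it held rank 286 from the highest ratio and rank 227 by mean level. Its log2 fold change was 1.68 in the authors' deposited table, and its adjusted p-value there was 8.71e-14. Neither a label nor a header names the test behind those p-values or the spread it assumed. The series holds 1 library per group, so the deposited folds and p-values are no independent check of these counts, here or for the genes below. There, 26.4% of the genes listed had an adjusted p-value under 0.05, 14.6% with a positive and 11.8% with a negative fold.

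The other ligands were scarce. Jag2, the second Jagged ligand, had 57 counts in the JMJD3 shRNA library and 36 in the control, or 3.15 against 3.20 CPM. Its log2 ratio was -0.03 (-0.65 to 0.62), so the interval allowed a change of either sign. Dll1, a Delta-like ligand, had 24 counts in the JMJD3 shRNA library and 23 in the control, or 1.33 against 2.05 CPM. The log2 ratio of Dll1 was -0.63 (-1.51 to 0.26), and no difference was detectable at this depth. Dll4, the Delta-like ligand best known from endothelium, had 4 counts in each library, or 0.221 CPM with JMJD3 shRNA against 0.356 CPM in the control. For Dll4, 217 bases of exon overlap another annotated gene, so reads there could go uncounted.

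Dividing CPM by exon length in kilobases gives RPKM, on which genes can be compared within a library. Jag1 stood at 132.3 RPKM (130.0 to 134.6) in the JMJD3 shRNA library and 41.3 RPKM (39.7 to 42.9) in the control. The summed RPKM of the 4 ligands was 133.5 with JMJD3 shRNA and 42.7 in the control, of which Jag1 made up 99.1% and 96.5%. In mm9 the 26 exons of Jag1 span bases 136907187 to 136942256 of chromosome 2, on the minus strand.

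Of the receptors, only Notch1 passed the rule, and it passed narrowly. Notch1 had 1028 counts in the JMJD3 shRNA library and 423 in the control, or 56.8 against 37.6 CPM. The ratio of Notch1 was 1.51 (1.35 to 1.69), a log2 ratio of 0.59 (0.43 to 0.76). It no longer passed under library totals, where the log2 ratio was 0.56, or with upper-quartile scaling, at 0.54. Across all genes the ratio rose with exon length, and Notch1, with 9489 bases of exon, stood at 0.17 (0.0049 to 0.34) once that trend had been removed. For Notch1 the authors' deposited table lists a log2 fold change of 0.59 and an adjusted p-value of 0.0313.

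Notch2, the receptor paired with JAG1 in duct formation, had 5380 counts in the JMJD3 shRNA library and 3446 in the control. On the CPM scale that was 297 against 307, a log2 ratio of -0.05 (-0.11 to 0.02). With 10506 bases of exon, Notch2 was the longest of the members, and its log2 ratio was -0.51 (-0.57 to -0.44) with the length trend removed, short of the 1.5-fold limit. Notch3, a receptor best known from vascular smooth muscle and pericytes, had 48 counts with JMJD3 shRNA and 29 in the control, or 2.65 against 2.58 CPM. The log2 ratio of Notch3 was 0.04 (-0.66 to 0.76), an interval that includes 1.5-fold in both directions.

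By RPKM, Notch2 held 81.7% of the summed level of the 3 receptors in the JMJD3 shRNA library and 87.2% in the control. Notch1 held 17.3% and 11.8%, and Notch3 stayed under 1% in both. The receptor sum was 34.6 RPKM with JMJD3 shRNA against 33.5 RPKM in the control. Both genes have 34 exons in mm9, where Notch1 spans bases 26313422 to 26359342 of chromosome 2 (minus strand) and Notch2 bases 97817461 to 97954290 of chromosome 3 (plus strand).

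The sequences just before the start sites of Jag1, Notch1 and Notch2 are shown because they are the most abundant ligand and the receptors with the highest levels. Jag1 passed as higher, Notch1 passed narrowly and not under every setting, and Notch2 did not pass. The sequences are the 250 bases before the RefSeq start on GRCm38.p6, which is not the build of the counts. They are written on the strand of the gene. They span chr2:137116521-137116770 on the minus strand for Jag1, chr2:26503823-26504072 on the minus strand for Notch1 and chr3:98013288-98013537 on the plus strand for Notch2. Capitals mark the GC box GGGCGG and TGACG, the core of the cyclic AMP response element, on either strand.
Jag1: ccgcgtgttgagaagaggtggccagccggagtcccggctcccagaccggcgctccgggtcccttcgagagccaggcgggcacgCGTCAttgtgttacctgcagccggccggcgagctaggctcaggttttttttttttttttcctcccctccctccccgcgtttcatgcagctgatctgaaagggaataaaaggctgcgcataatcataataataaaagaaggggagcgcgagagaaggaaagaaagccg
Notch1: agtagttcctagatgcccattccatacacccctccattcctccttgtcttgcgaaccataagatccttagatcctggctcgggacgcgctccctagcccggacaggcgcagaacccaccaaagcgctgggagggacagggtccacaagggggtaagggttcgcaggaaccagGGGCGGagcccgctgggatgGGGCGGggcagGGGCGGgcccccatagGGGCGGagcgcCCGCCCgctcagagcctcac
Notch2: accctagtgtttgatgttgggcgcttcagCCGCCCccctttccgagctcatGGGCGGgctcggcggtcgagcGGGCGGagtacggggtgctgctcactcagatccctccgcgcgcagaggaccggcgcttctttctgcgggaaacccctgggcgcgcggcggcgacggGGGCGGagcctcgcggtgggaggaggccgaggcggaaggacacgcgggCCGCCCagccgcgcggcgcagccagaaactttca
The GC box, the binding motif of SP1-like factors, occurred 5 times before Notch1, 5 times before Notch2 and 0 times before Jag1, and 32.7% of all 32851 windows of that length held at least 1. The letters TGACG occurred once in the Jag1 window, beginning 167 bases before the start, and in neither Notch1 nor Notch2, beside 17.8% of all windows. Notch3, with a log2 ratio of 0.04, also held it, 184 bases before its start, and the windows of Jag2, Dll1 and Dll4 did not. TGGGAA, the core of the RBPJ motif, was in none of the 8 windows of the 7 members listed, beside 21.6% of all windows. GC boxes can overlap one another, and each motif was sought as exact letters on both strands, so a match is a description of the letters only. Hes1, Hey1 and Heyl were without an entry.

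The targets moved in opposite directions. Hes1, a basic helix-loop-helix repressor and the best known direct Notch target, had 1556 counts in the JMJD3 shRNA library and 482 in the control. That was 85.9 against 42.9 CPM, a ratio of 2.0 (1.81 to 2.22) and a log2 ratio of 1.0 (0.85 to 1.15). Hes1 held rank 928 from the highest ratio, and the authors' deposited table lists a log2 fold change of 1.0 and an adjusted p-value of 5.52e-05. In mm9 it spans bases 30065443 to 30067882 of chromosome 16, on the plus strand.

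Hey1, a related repressor best known from the cardiovascular system, had 29 counts with JMJD3 shRNA and 63 in the control, or 1.60 against 5.61 CPM. Its ratio was 0.286 (0.177 to 0.450), a log2 ratio of -1.81 (-2.49 to -1.15), and rank 304 from the lowest. Hey1 has a log2 fold change of -1.80 in the authors' deposited table, where its adjusted p-value is 2.64e-05. In mm9 Hey1 spans bases 8663359 to 8667038 of chromosome 3, on the minus strand. Heyl, the third repressor of the HEY family, had 2 counts with JMJD3 shRNA and 0 in the control. No fold is given for Heyl, since both counts lie under the floor of 3 counts, which is 0.267 CPM in the control.

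**Figure D2:**
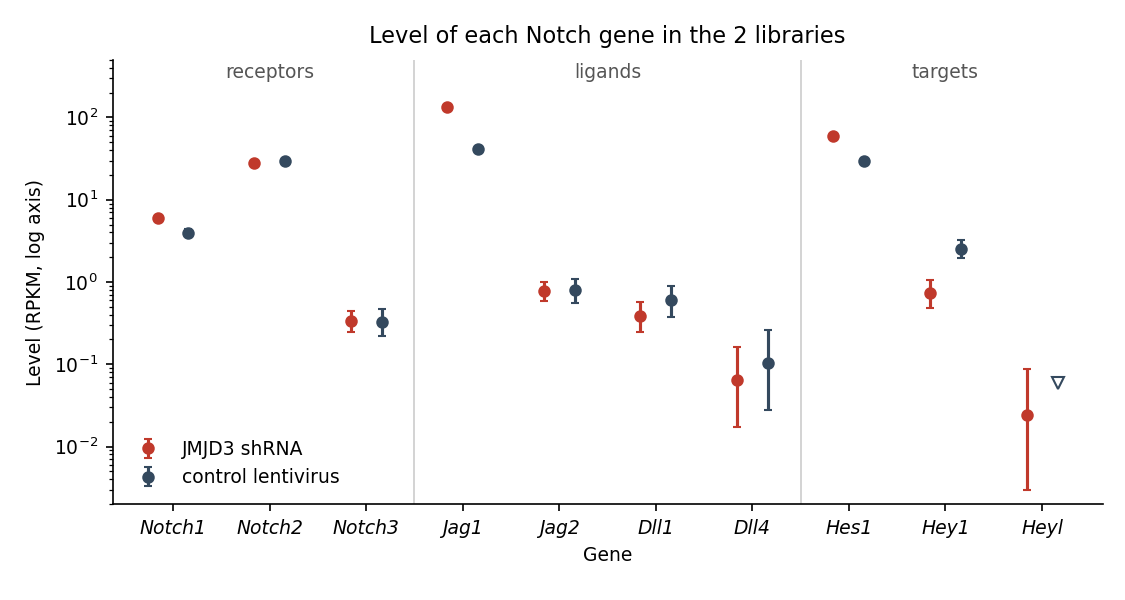
RPKM on a log axis (y) is drawn for each Notch gene (x) in the JMJD3 shRNA library and the control library, with exact Poisson 95% intervals as bars. The open triangle is the floor of 3 counts for Heyl, which had 0 counts in the control. Jag1, Hes1 and Notch2 stand above the other 7 genes in both libraries, and the 6 scarcest genes of the JMJD3 shRNA library lie below 1 RPKM.

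The order of the levels was the same in both libraries except that Hey1 and Jag2 changed places. In the JMJD3 shRNA library Jag1, Hes1 at 59.2 RPKM, Notch2 at 28.3 RPKM and Notch1 at 5.98 RPKM followed each other with intervals that did not overlap. In the control Jag1 again came first, but Hes1 at 29.6 RPKM and Notch2 at 29.2 RPKM overlapped. Hey1 stood at 0.726 RPKM (0.486 to 1.04) with JMJD3 shRNA, overlapping Jag2 at 0.777 RPKM, and at 2.54 RPKM (1.95 to 3.25) in the control, above Jag2 at 0.790 RPKM. Below them Dll1 and Notch3 overlapped in both libraries, as did Dll4 and Heyl at the bottom.

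**Figure D3:**
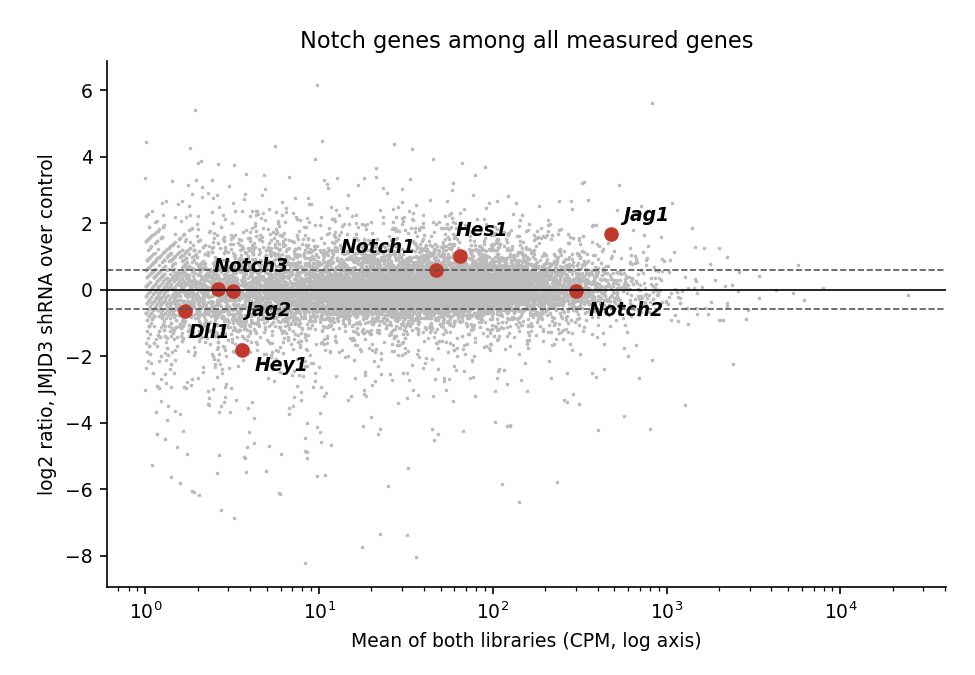
Each point is 1 measured gene, with the mean of both libraries in CPM on a log axis (x) and the log2 ratio of JMJD3 shRNA over control (y). Genes with 0 counts in a library are not drawn, and dashed lines mark 1.5-fold. Jag1 and Hes1 lie above the upper line, Hey1 below the lower line, and Notch2, Notch3 and Jag2 close to 0.

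The remaining receptors, ligands and HES or HEY factors were mostly near the limit of detection. Notch4, an endothelial receptor, was the only other receptor or ligand of 6 sought that was measured, with 40 counts in the JMJD3 shRNA library and 39 in the control and a log2 ratio of -0.65 (-1.32 to 0.02). The non-canonical ligand genes Dlk1, Dner and Cntn1 and the Delta-like gene Dll3 had at most 2 counts in either library, and Dlk2 had 16 with JMJD3 shRNA and 6 in the control. Hes2, Hes3, Hes5, Hes7 and Hey2 were not measured either, with at most 9 counts.

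Of the 8 other HES, HEY and related repressors sought, 3 were measured. Hes6, a HES factor that counteracts HES1 in neural cells, was lower, at 35.3 CPM with JMJD3 shRNA against 62.3 CPM, a log2 ratio of -0.82 (-0.98 to -0.66). Bhlhe40, a stress- and clock-related repressor of the wider family, was lower at 110.5 CPM against 171.6 CPM, a log2 ratio of -0.64 (-0.73 to -0.54), and 118 bases of its exons overlap another gene. Bhlhe41, its close relative, was higher at 8.67 CPM against 1.60 CPM, from 157 and 18 counts, a log2 ratio of 2.44 (1.73 to 3.23). None of the measured factors other than Hes1 and Bhlhe41 was higher.

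Across the 7 lists of other pathway genes, 69 of 86 genes sought were measured, and 19 passed as higher and 6 as lower, beside 15.3% and 12.8% of all measured genes. Their median log2 ratio was 0.16, beside -0.0036 for all measured genes. With the trend of the ratio with exon length removed, 15 passed as higher and 8 as lower, beside 13.2% and 12% of all measured genes.

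Of the genes that act on ligand uptake and receptor traffic, 4 of 14 measured passed as higher and 0 as lower. The shares of all measured genes were 15.3% and 12.8%. The ubiquitin ligases of ligands Neurl1b and Neurl1a had the highest log2 ratios, 1.48 (0.47 to 2.64) and 1.01 (0.61 to 1.42). Neurl1b rested on 45 counts with JMJD3 shRNA and 10 in the control. The endocytic adaptor Epn1 and the Deltex family gene Dtx3 were the lowest, both at -0.23. Mib1, the ubiquitin ligase that activates ligands, and Numb, an inhibitor of the receptor, were the others that passed, at 0.76 and 0.69, and were named after their values were seen.

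Genes that add sugars to the receptor held 5 measured members, of which 0 passed in either direction, beside 28% of all measured genes. The xylosyltransferase Gxylt1 and the fucosyltransferase Pofut1 were highest, at 0.35 (0.20 to 0.51) and 0.24 (0.03 to 0.46). Rfng, a Fringe enzyme, was lowest at -0.39 (-0.65 to -0.13), and its relative Lfng was at 0.02 on 62 and 38 counts.

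Receptor cleavage genes had a median log2 ratio of -0.20. Of 9 measured, 2 passed as lower and 0 as higher, beside 12.8% and 15.3% of all measured genes. Adam10, the protease of the first cut after ligand binding, had 4687 counts in the JMJD3 shRNA library and 4678 in the control, or 259 against 416 CPM, a log2 ratio of -0.69 (-0.74 to -0.63). Aph1b, a subunit of gamma-secretase, was also lower at -0.63 (-0.91 to -0.36). Aph1a, another form of that subunit, was highest at 0.38 (0.21 to 0.56), with 413 bases of its exons shared with another gene.

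The nuclear complex and its co-regulators had a median log2 ratio of 0.26. Of 26 measured genes, 8 were higher and 1 was lower, beside 15.3% and 12.8% of all measured genes. The co-activator Maml2 was highest at 1.73 (1.05 to 2.47), from 112 and 21 counts, followed by the co-repressor Ctbp2 at 1.24 (1.02 to 1.46). The Groucho-type co-repressors Tle1 and Tle2 were lowest, at -0.85 (-1.01 to -0.68), which passed, and -0.58 (-0.81 to -0.36), which did not. Rbpj itself, named after its values were seen, stood at 85.8 CPM with JMJD3 shRNA against 44.4 CPM, a log2 ratio of 0.95 (0.80 to 1.10). Without the length trend 5 of the 26 passed as higher and 2 as lower, beside 13.2% and 12% of all measured genes.

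**Figure D4:**
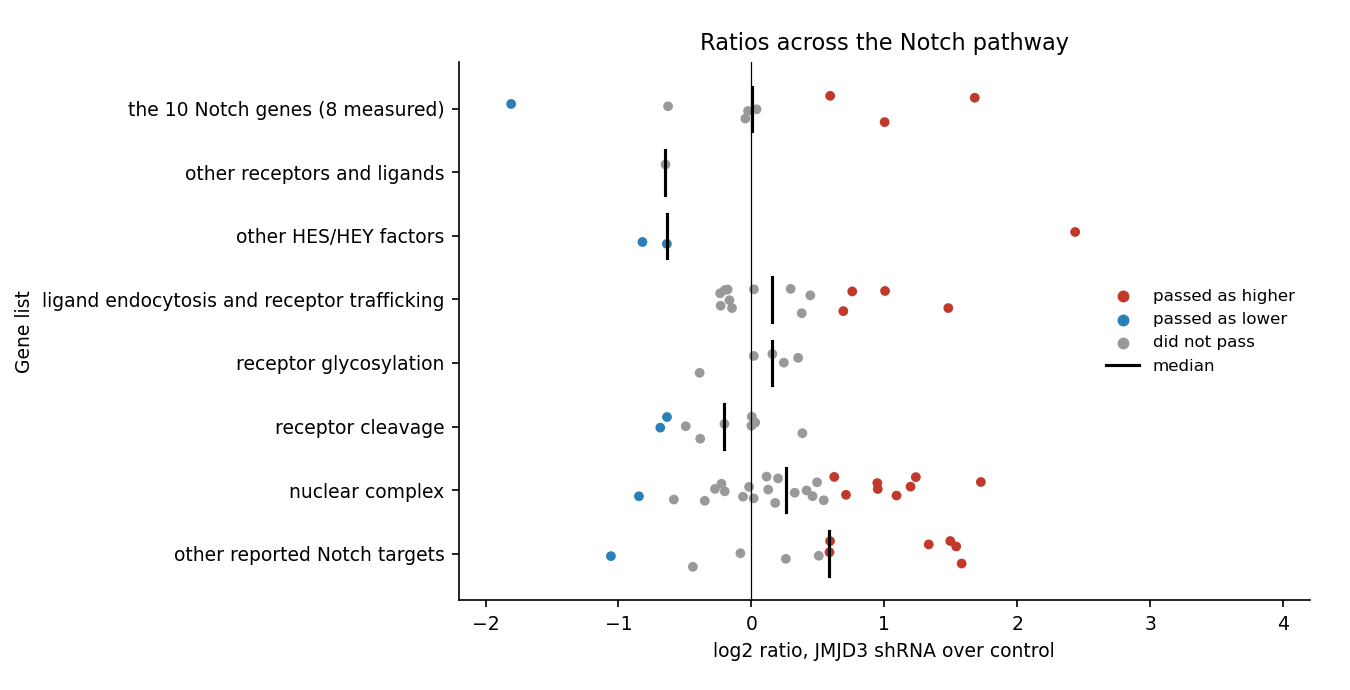
Each point is the log2 ratio of JMJD3 shRNA over control (x) of 1 measured gene in a list (y), coloured by whether it passed the rule of size, and black bars are medians. The list of other reported targets has its median at 0.59, and points are spread vertically at random to keep them apart.

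Among 11 measured genes reported elsewhere as Notch targets in some cell type, 6 were higher and 1 was lower. The shares among all measured genes were 15.3% and 12.8%, and the median log2 ratio of the 11 was 0.59. With library totals or upper-quartile scaling 4 of the 11 passed as higher. At 2-fold 4 were higher and 1 lower, beside 7.35% and 6.19% of all measured genes. Without the length trend 5 were higher and 1 lower, beside 13.2% and 12%. The cyclin Ccnd1 was highest at 1.58 (1.49 to 1.68), followed by the growth factor Tgfb2 at 1.54 (1.42 to 1.66). Id2, an inhibitor of basic helix-loop-helix factors, was lowest at -1.06 (-1.10 to -1.01), and Gata3 was at -0.44 (-1.48 to 0.62) on 19 and 16 counts. Nrarp, a feedback inhibitor of Notch named after its values were seen, had 70 counts with JMJD3 shRNA and 46 in the control and a log2 ratio of -0.08 (-0.64 to 0.49). These genes answer to many other signals.

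Part of the hepatocyte markers were lower in the JMJD3 shRNA library, and part of the bile duct markers were higher. In bulk RNA, fewer cells of a type and less RNA per cell cannot be told apart. Of 9 measured hepatocyte markers 6 passed as lower and 0 as higher, beside 12.8% and 15.3% of all measured genes. The summed level of the hepatocyte markers was 6357 CPM in the JMJD3 shRNA library against 12129 CPM in the control. Cyp2e1, usually abundant in hepatocytes, had 0 counts in both. The members of that sum differed widely. The urea cycle enzyme Cps1 had a log2 ratio of -5.85, the aminotransferase Tat -4.19 and, named after its values were seen, the fibrinogen chain Fgb -2.24. Transferrin, Trf, the most abundant of them, had 4254 CPM with JMJD3 shRNA against 4282 CPM in the control (log2 -0.01), and Apoa1 was at -0.17. Cholangiocyte markers were higher in 4 of 7 measured and lower in 0, beside 15.3% and 12.8% of all measured genes. Their sums were 8434 and 8100 CPM, most of it Spp1, and none of them was at 0. With library totals or upper-quartile scaling 2 of the 7 passed. Krt7, a bile duct keratin, had a log2 ratio of 1.65 (1.02 to 2.33), and Epcam one of 0.01 (-0.69 to 0.73). Sox9, which is on this list and among the reported targets, was at 0.59 (0.50 to 0.68). The part of these cells in the higher Jag1 and Hes1 was not tested.

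Endothelial markers, which bear on Hey1, Notch1, Notch4 and Dll4, summed to 65.2 CPM with JMJD3 shRNA against 77.0 CPM in the control. Of 11 measured, 4 were lower and 1 was higher, beside 12.8% and 15.3% of all measured genes. At 2-fold 2 were lower and 1 higher, beside 6.19% and 7.35% of all measured genes. With a minimum of 5 CPM 1 passed as lower and 0 as higher, and with counts halved for the interval 3 passed as lower. None of the endothelial markers was at 0 in either library, and Oit3 at 1.13 and Stab2 at -1.03 were the extremes. Stellate and mural markers, which bear on Notch3 and Heyl, summed to 244 against 211 CPM. In this list 2 of 8 measured were higher and 2 lower, beside the same shares of all measured genes. Of these, 1 passed as higher with library totals or with upper-quartile scaling, and Cspg4 was at 0 in both libraries. The sum is mostly Col1a1, Acta2 and Tagln. Of the 8 measured, 6 had a ratio above 1 and 2 below 1, with a median log2 ratio of 0.24. Myh11 at 0.80, which passed, and Des at 0.79, which did not, were the highest. Reln and Pdgfrb were the lowest, and Pdgfrb was at -0.82. Reln, a stellate cell marker, had 17 counts with JMJD3 shRNA and 141 in the control, a log2 ratio of -3.74 (-4.56 to -3.01). Macrophage markers summed to 27.9 against 26.2 CPM, 0 of 5 measured passed, and Clec4f was at 0 in both libraries. The part of these cells in the ratios of the Notch genes was not tested.

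**Figure D5:**
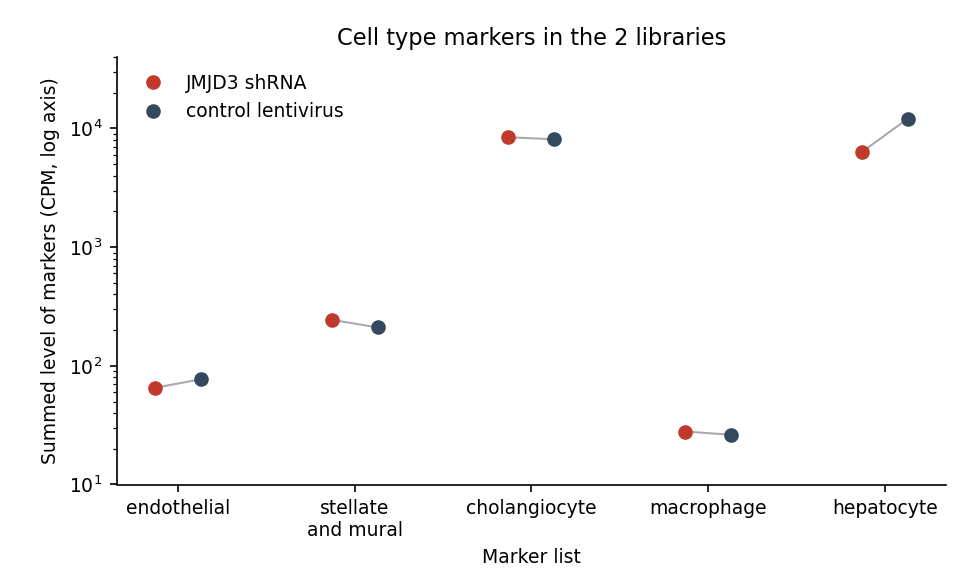
The summed CPM of each marker list (x) is drawn on a log axis (y) for the JMJD3 shRNA library and, to its right, the control library. The hepatocyte sum is 6357 CPM against 12129 CPM, and the other 4 lists differ less on this scale.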

How the data were processed

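RNA was sequenced as 100 bp paired ends in 1 library per group, per the labels' protocols. The deposited counts are whole numbers per gene from featureCounts 1.4.6-p4, run on mm9 gene models without regard to strand, per the file headers. STAR 2.5.3a, Trimmomatic 0.36 and edgeR are named per the submitters' processing notes. No option for pairs or for reads at several places is recorded in the headers, so both reads of a pair may be counted and reads from near-identical sequence may be missing. The authors' deposited table gives a log2 fold change, an average log2 CPM, a p-value and an adjusted p-value for 12838 genes, and its sign matched JMJD3 shRNA over control in 4793 of 4793 genes that differed by at least 0.5 on the log2 scale.

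TMM factors came from edgeR 4.0.16 in R 4.3.3. Ratios carry no pseudocount, and exact conditional binomial intervals were computed with scipy 1.17.1. The floor of 3 counts served to withhold folds and to draw Heyl in the control, and it did not enter the calls. A measured gene with a count of 0 in 1 library therefore met the fold limit outright. The length trend is a lowess fit of the log2 ratio on exon length over all measured genes, and size factors from DESeq2 1.42.0 were an alternative. With 1 library per group no p-value was computed, and the samples were grouped by their titles. The procedure was tested on simulated counts that held counting error only. That simulation therefore cannot bear on differences between pools of mice or virus preparations. Named genes are all members, all other receptors, ligands and HES or HEY factors, and the 2 highest and 2 lowest of each other list, with exceptions stated, and 1 gene that this rule takes is not reported here. The members and lists were chosen with earlier results of these data known. Promoter sequences are from RefSeq on GRCm38.p6. Alternatives concerned scaling, the filter on low counts, the fold, the interval and exon length.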

Additional observations from a re-analysis of the deposited data

How the results depend on the processing

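With a 2-fold limit Notch1 at 0.59 no longer passed. At that limit 11 pathway genes were higher and 1 lower, beside 7.35% and 6.19% of all measured genes. At 1.5-fold the counts were 19 and 6, beside 15.3% and 12.8%. The log2 ratio of Notch1 also fell short with library totals, at 0.56, with upper-quartile factors, at 0.54, and with the exon length trend removed, at 0.17. Removing that trend moved Notch2 to -0.51, Jag1 to 1.47 and Hes1 to 1.17, of which Jag1 and Hes1 still passed. A minimum of 5 CPM left out Hey1, so that 0 members were lower and the median of the members was 0.80. That change follows from the genes left in the list. The median of the members was 0.0070 as reported and 0.02 under DESeq2 size factors, both above 0, and it was -0.03 with library totals, -0.04 with upper-quartile factors, -0.03 with no filter and -0.23 with the length trend removed. Jag1 ranged from 1.47 to 1.69, Hes1 from 0.95 to 1.17 and Hey1 from -1.86 to -1.73 over the settings that gave them a value. Halving the counts for the interval, since both reads of a pair may be counted, left 3 members higher and 1 lower.

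No paired analysis was possible because each group is 1 library, and for the same reason no replicate could be left out. Depth limits the scarce members. The intervals of Notch3, Jag2, Dll1 and Dll4 each include a 1.5-fold difference in at least one direction, and nothing can be said of Heyl beyond its counts. Whether the trend with exon length arose in the libraries or in the cells was not tested.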

Other observations

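Ratios between genes of the same library do not depend on how the libraries are scaled. The pairs below were chosen after their values were seen, and the intervals are exact conditional 95% intervals of the counts. There were 2.45 reads of Jag1 for each read of Notch2 in the JMJD3 shRNA library, against 0.739 in the control, a 3.31-fold difference (3.11 to 3.52). For Hes1 over Hey1 the values were 53.7 and 7.65, a 7.0-fold difference (4.39 to 11.4). Notch1 over Notch2, which have exons of similar length, stood at 0.191 with JMJD3 shRNA and 0.123 in the control, a 1.56-fold difference (1.38 to 1.76).

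The inhibitors of basic helix-loop-helix factors Id1 and Id2, both on the list of reported Notch targets, lay on opposite sides. Id1 had 112.9 CPM with JMJD3 shRNA against 44.8 CPM in the control, a log2 ratio of 1.33 (1.19 to 1.48), and Id2 had 373 CPM against 776 CPM, a log2 ratio of -1.06 (-1.10 to -1.01). Id1 was named after its values were seen.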
